A study of Rattus norvegicus with 10 samples.

Results

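The genes described here are scavenger receptors and markers of the liver sinusoidal endothelium, measured in whole livers of cirrhotic rats. The list names 10 genes, Lyve1, Stab1, Stab2, Mrc1, F8, Fcgr2b, Clec4g, Oit3, Gata4 and Ehd3. A gene entered through its probe sets with a single gene symbol, and each gene's probe set was chosen by the variance of its log2 signal over the 10 arrays, the highest being used. Of the 10 genes, 8 had such a probe set, with 14 probe sets in all, out of 14217 genes measured on the array. Clec4g, a lectin of these cells, and Oit3 had none and were not analysed here. That variance was taken without regard to treatment.

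All 10 animals were male Wistar rats with cirrhosis brought on by breathing CCl4, a hepatotoxin. Of these, 5 rats received weekly tail vein injections of CVX-060, an inhibitor of the Tie2 ligand Ang2, at a dose of 10 mg/kg over 4 weeks, and 5 rats were injected with vehicle. Total RNA from each whole liver, 150 ng, was hybridized to its own Affymetrix Rat Genome array, whose probe sets read the 3′ part of transcripts, and healthy livers were not analysed here. The array answered whether hepatic expression differed between CVX-060 and vehicle in livers that all carried the CCl4 damage. A whole liver holds hepatocytes, stellate cells, Kupffer cells and bile duct cells beside its endothelium, so that fewer cells of a type and less RNA per cell cannot be told apart in these data.

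Sinusoidal endothelial cells line the liver capillaries as a sieve without a basement membrane and clear waste molecules from portal blood by endocytosis through clathrin-coated vesicles. Their scavenger receptors bind hyaluronan, mannose-ended glycoproteins, collagen fragments and small immune complexes. In cirrhosis these cells are known to lose their pores and gain features of ordinary capillaries, a process called capillarization. The Tie2 receptor, encoded by Tek, sits on endothelial cells, and its ligand Ang2 is released by endothelium.

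The promoters of the receptors that varied together among the rats are shown to give their sequence context. Of the 8 measured genes, 5 had an entry in the RefSeq promoter table of rat build GRCr8. The 250 bases before the start are printed 5′ to 3′ on the gene's strand, with a match to a searched motif in capitals. They lie at chr1:174410978-174411227 on the minus strand for Lyve1, chr16:6367360-6367609 on the minus strand for Stab1, chr7:23320563-23320812 on the minus strand for Stab2 and chr17:82157475-82157724 on the plus strand for Mrc1.
Lyve1: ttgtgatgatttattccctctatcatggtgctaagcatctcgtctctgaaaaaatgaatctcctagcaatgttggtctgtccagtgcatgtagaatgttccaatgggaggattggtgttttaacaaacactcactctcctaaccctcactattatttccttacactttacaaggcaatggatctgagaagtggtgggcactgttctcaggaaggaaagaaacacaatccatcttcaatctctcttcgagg
Stab1: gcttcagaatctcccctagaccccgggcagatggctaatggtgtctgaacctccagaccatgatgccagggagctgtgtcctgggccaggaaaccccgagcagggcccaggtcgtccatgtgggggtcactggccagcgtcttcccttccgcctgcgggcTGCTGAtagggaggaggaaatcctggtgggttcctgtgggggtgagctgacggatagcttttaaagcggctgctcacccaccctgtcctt
Stab2: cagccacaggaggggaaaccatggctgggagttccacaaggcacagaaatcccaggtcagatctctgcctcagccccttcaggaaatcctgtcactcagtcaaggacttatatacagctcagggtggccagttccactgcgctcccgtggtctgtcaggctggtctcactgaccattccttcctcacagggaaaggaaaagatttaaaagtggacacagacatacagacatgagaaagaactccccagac
Mrc1: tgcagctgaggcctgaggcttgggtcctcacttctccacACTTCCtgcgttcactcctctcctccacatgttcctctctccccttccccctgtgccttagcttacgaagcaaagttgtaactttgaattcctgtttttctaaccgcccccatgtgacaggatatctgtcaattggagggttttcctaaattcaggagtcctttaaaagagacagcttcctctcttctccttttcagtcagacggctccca
The search covered a GATA motif (GATAAG), an ETS motif (GGAAGT), a Maf motif (TGCTGA) and an E-box (CACGTG) on both strands of the window of 250 bases before and 50 bases after the start. GATAAG and CACGTG were in 0 of the 5 promoters, against 7.05% and 6.42% of all 33469 promoters of that length. TGCTGA was found in Stab1 alone of the 5, where its first base is at position -90 from the start, against 18.4% of all promoters. GGAAGT was found in 3 of the 5 (Mrc1, Stab1 and Ehd3), against 22.6% of all promoters. The Mrc1 match begins at position -211 on the opposite strand, and its letters therefore read as the reverse complement in the line for Mrc1. The Stab1 match lies after the start and the Ehd3 match crosses it. No match overlapped another, and each is a match of letters only.

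Signals were deposited on the log2 scale for each probe set, with array medians of 5.52 to 5.57. Across genes, which are not independent replicates, arrays correlated with r of 0.967 to 0.992. The first principal component held 35.4% of the variance, and CVX-060 rat 5 (score 35.5) and vehicle rat 2 (34.5) stood apart from the other 8 rats (-26.2 to 9.7). In the same rats Cyp2c12, a cytochrome P450 that is typical of female rat liver, had signals of 12.02 and 12.71, against 7.11 to 9.79 in the others. The Y-linked gene Uty had 8.12 to 8.91 in all 10 rats. The clock gene Bmal1 also differed between rats, at 8.38, 8.75, 8.17, 5.75 and 5.21 in CVX-060 rats 1 to 5, against 7.90, 7.95, 5.13, 4.87 and 4.88 in vehicle rats 1 to 5. Results were therefore also computed without the 2 rats that stood apart and with Bmal1 as a covariate. The main results rest on all 10 arrays, while the paper kept 2 replicates of each treatment after quality control and inspection of principal components.

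Most of the receptor genes gave a signal well above the probe sets of genes that liver does not use. The background of an array was the 95th percentile of its signals for 20 probe sets of odorant, vomeronasal and trace amine receptors, found by symbol prefix, which lay at 5.34 to 6.06 (median 5.87). Lyve1, Stab1, Stab2, Mrc1, Fcgr2b and Gata4 were above it in all 10 rats, where Gata4 in its lowest rat had 6.03. Ehd3 was above it in 9 rats and F8 in 5 rats. At the 90th percentile, with a median level of 4.66, all 8 genes were above background in all 10 rats, and at the 99th percentile, with a median level of 6.79, 5 were. One of the 20 probe sets belongs to Olr1, the oxidised LDL receptor, which shares only the prefix, and without it 5 genes lay above background in all rats. The levels of different genes are not set against each other, since binding strength varies from probe set to probe set.

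With CVX-060, the mean signal of all 8 genes was higher than with vehicle, by 0.12 to 0.44 on the log2 scale, with a median of 0.28. The same held for 52.6% of all 14217 genes, and for 52.1% of those with a mean signal over background. Over all genes the median difference was 0.006 and the median absolute difference 0.07. By limma, 0 of the 8 passed an adjusted p under 0.05, against 0% of all genes, and the lowest adjusted p over all genes was 0.99997. At an unadjusted p under 0.05, limma called 2 of the 8, Lyve1 and Mrc1, both higher with CVX-060, against 1.27% of all genes in that direction and 2.44% in either. An exact permutation test (two-sided, each way to split the 10 rats 5 against 5, lowest p possible 0.00794) called 1 of the 8, Lyve1, against 1.58% of all genes in that direction and 2.85% in either. The groups overlapped in each of the 8 genes, while 0.246% of all genes had every CVX-060 rat above every vehicle rat. The median difference of the 8 genes was 0.17 without vehicle rat 3 and 0.17 with Bmal1 as a covariate, with all 8 still higher, and the part of the clock in the difference was not tested. With that covariate the differences were 0.37 for Lyve1, 0.30 for Mrc1, 0.29 for Stab2, 0.18 for Fcgr2b, 0.16 for F8, 0.14 for Gata4, 0.13 for Stab1 and 0.08 for Ehd3. Since the genes were chosen with results of these data known, these counts describe the list and are no test of it.

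Lyve1 encodes a hyaluronan receptor of sinusoidal and lymphatic endothelium, and its difference was the largest of the 8. Its log2 signals (probe set 1382192_at) were 10.74, 10.50, 10.65, 10.34 and 10.64 in CVX-060 rats 1 to 5, against 10.19, 10.43, 9.56, 10.30 and 10.19 in vehicle rats 1 to 5. The groups overlapped only through CVX-060 rat 4, which lay below vehicle rat 2, and vehicle rat 3 was far below the rest. The means were 10.57 ± 0.16 with CVX-060 and 10.13 ± 0.34 with vehicle (SD, n = 5 each), a difference of 0.44 (1.36-fold) with an SE of 0.15 and a 95% interval of 0.10 to 0.78. The exact permutation p was 0.0159 (two-sided), and the limma adjusted p was 0.99997. A second probe set, 1382732_at, read 10.46, 10.13, 10.46, 9.82 and 10.22 in CVX-060 rats, against 9.99, 9.89, 9.54, 9.81 and 9.99 in vehicle rats. It placed the same 4 CVX-060 rats above every vehicle rat, differed by 0.37 (exact permutation p = 0.0397) and had r = 0.86 with the first over the 10 rats. Without vehicle rat 3 the difference of Lyve1 was 0.30 (exact permutation p = 0.0317), and across the 10 omissions of a rat the exact permutation p stayed between 0.0159 and 0.0317.

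Mrc1 encodes the mannose receptor, which takes up mannose-ended glycoproteins, lysosomal enzymes and collagen chains and is also made by macrophages. Its signals (1392648_at) were 9.66, 9.50, 9.66, 9.07 and 9.75 in CVX-060 rats, against 9.23, 9.53, 8.83, 9.15 and 8.87 in vehicle rats. CVX-060 rats 1, 3 and 5 lay above every vehicle rat, whereas CVX-060 rat 4 was below vehicle rats 1, 2 and 4. The means were 9.53 ± 0.27 with CVX-060 and 9.13 ± 0.29 with vehicle (SD, n = 5 each). The difference was 0.40 (1.32-fold, SE 0.16, 95% interval 0.04 to 0.76), with an exact permutation p of 0.0714 and a limma adjusted p of 0.99997. Leaving out 1 rat at a time gave differences of 0.33 to 0.52.

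The stabilins are large scavenger receptors with many repeated domains, and stabilin-2 is the main hyaluronan clearance receptor of the liver sinusoid. Stab2 (1385160_at) had signals of 9.30, 9.10, 9.32, 8.80 and 9.29 in CVX-060 rats, against 8.79, 9.10, 8.65, 9.19 and 8.31 in vehicle rats. CVX-060 rats 1, 3 and 5 were again above every vehicle rat, and vehicle rat 5 was the lowest. The means were 9.16 ± 0.22 with CVX-060 and 8.81 ± 0.35 with vehicle, and the difference of 0.35 (1.28-fold, SE 0.17, 95% interval -0.02 to 0.73) had an exact permutation p of 0.0714 (n = 5 each). Without vehicle rat 5 it was 0.23. Stab1 (1374247_at) had 7.85, 7.51, 7.78, 7.50 and 7.56 in CVX-060 rats, against 7.60, 7.65, 7.14, 7.67 and 7.02 in vehicle rats. Here vehicle rats 1, 2 and 4 lay above CVX-060 rats 2, 4 and 5, and vehicle rats 3 and 5 were the lowest of all. The difference was 0.22 (SE 0.15, 95% interval -0.10 to 0.55, exact permutation p = 0.222), between means of 7.64 ± 0.16 with CVX-060 and 7.42 ± 0.31 with vehicle. It was 0.12 without vehicle rat 5 and 0.13 with Bmal1 as a covariate, and the medians were 7.56 with CVX-060 and 7.60 with vehicle.

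Fcgr2b encodes the inhibitory Fc gamma receptor, through which sinusoidal endothelium removes small immune complexes, and B cells and macrophages make it too. Its signals (1371079_at) were 10.03, 9.92, 10.09, 9.43 and 9.69 in CVX-060 rats, against 9.55, 9.95, 8.87, 9.64 and 9.54 in vehicle rats. Vehicle rat 3 was far below the other 9 rats, and CVX-060 rat 4 was the next lowest. The difference was 0.32 (SE 0.19, 95% interval -0.10 to 0.75, exact permutation p = 0.167), between means of 9.83 ± 0.27 with CVX-060 and 9.51 ± 0.39 with vehicle, and without vehicle rat 3 it was 0.16, and 0.18 with Bmal1 as a covariate. Fc receptor genes resemble each other in sequence, and the specificity of this probe set was not tested.

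F8 encodes coagulation factor VIII, which liver endothelium secretes, and it had 5 probe sets. The one of highest variance, 1395015_at, had signals of 6.15, 5.76, 5.87, 5.76 and 5.97 in CVX-060 rats, against 5.82, 5.92, 5.49, 5.54 and 5.61 in vehicle rats. These values lie near background, and vehicle rats 1 and 2 fell within the range of the CVX-060 rats. The difference was 0.23 (SE 0.11, 95% interval -0.02 to 0.47, exact permutation p = 0.0952). Its variance of 0.0416 was little above the 0.0404 of the next probe set, 1396181_at, which differed by -0.09 and lay below background. The probe set of highest signal, 1380190_at, was above background in all 10 rats, at 7.08, 7.10, 7.42, 7.03 and 7.20 in CVX-060 rats, against 7.26, 7.37, 6.90, 6.89 and 7.11 in vehicle rats. There the groups were interleaved, and the difference was 0.06 (exact permutation p = 0.635). The value for F8 thus depended on the probe set read, and the 2 remaining probe sets differed by -0.01 each.

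Gata4 encodes a zinc finger transcription factor that, from work in mice, is needed for sinusoidal rather than continuous capillaries in the liver. Its signals (1387894_at) were 7.05, 6.71, 6.35, 6.86 and 6.83 in CVX-060 rats, against 6.87, 6.73, 6.03, 6.74 and 6.49 in vehicle rats. The groups were interleaved but for vehicle rat 3, the lowest of all, and the next lowest was CVX-060 rat 3. The difference was 0.19 (SE 0.17, 95% interval -0.19 to 0.57, exact permutation p = 0.397), 0.12 without CVX-060 rat 1, 0.29 without CVX-060 rat 3 and 0.05 without vehicle rat 3. The other Gata4 probe set, 1370293_at, was below background in every rat and differed by 0.02. Ehd3 encodes an ATPase of endocytic recycling that marks sinusoidal endothelium within the liver. Its signals (1387588_at) were 6.28, 6.44, 6.60, 6.23 and 6.28 in CVX-060 rats, against 6.30, 6.31, 5.99, 6.24 and 6.36 in vehicle rats. CVX-060 rats 2 and 3 were above all vehicle rats and vehicle rat 3 was below all others, while the other 7 rats lay close together. The difference was 0.12 (SE 0.10, 95% interval -0.09 to 0.34, exact permutation p = 0.27), 0.07 without CVX-060 rat 3 and 0.06 without vehicle rat 3.

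**Figure D1:**
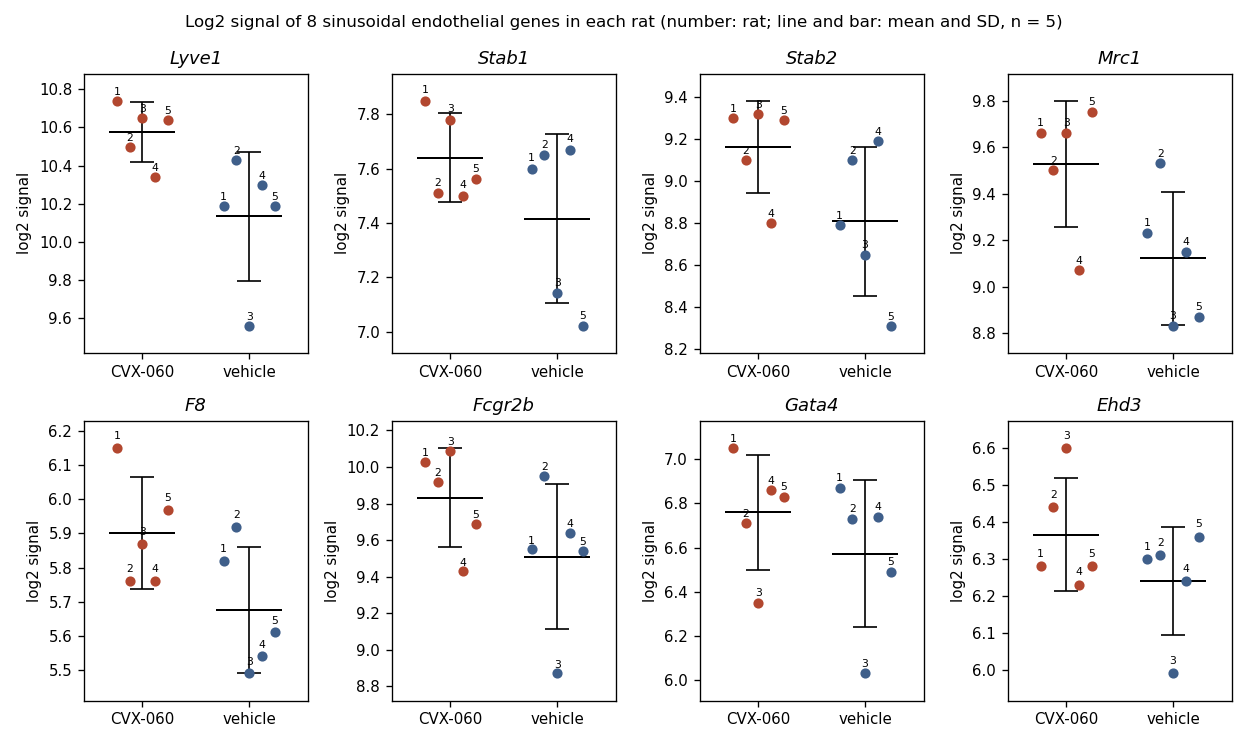
Log2 signal (y axis, a scale of its own in each panel) of the 8 genes in the 5 CVX-060 rats (red, left) and the 5 vehicle rats (blue, right); numbers name the rats, and lines and bars give the mean and SD. All 8 means were higher with CVX-060, the groups overlapped in each gene, and vehicle rat 3 was the lowest rat in 6 of the 8 panels.

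**Figure D2:**
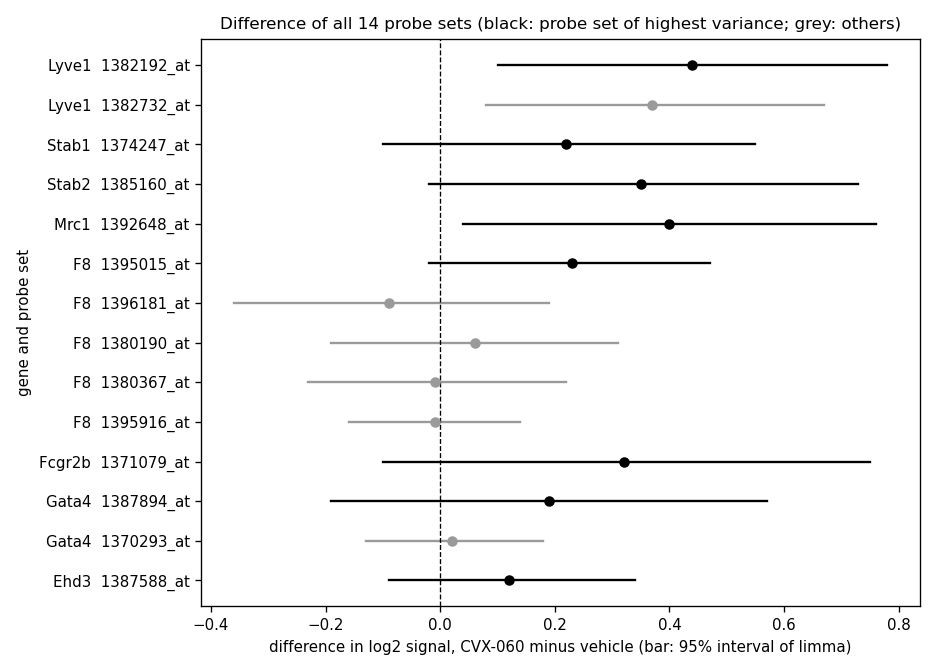
Difference in log2 signal, CVX-060 minus vehicle (x axis), of the 14 probe sets of the 8 genes (y axis), with the 95% interval of limma as bars; black marks the probe set of highest variance and grey the others. The black points run from 0.12 to 0.44, and the interval lies above 0 for both Lyve1 probe sets and for Mrc1.

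Most of the 8 genes shared a pattern over the rats that was wider than the treatment groups, which Gata4 and Ehd3 followed less closely. To set them on one scale, each gene was centred on its mean over the 10 rats and divided by its SD, and the 8 values of a rat were averaged. This mean was 1.03, 0.35, 0.78, -0.26 and 0.55 in CVX-060 rats 1 to 5, against -0.07, 0.42, -1.76, -0.12 and -0.91 in vehicle rats 1 to 5. The 2 lowest rats were vehicle rats 3 and 5 and the highest CVX-060 rats 1, 3 and 5, with vehicle rat 2 next below these and CVX-060 rat 4 next above the lowest pair. CVX-060 rat 1 was the highest rat for 4 genes, CVX-060 rat 3 for 3 and CVX-060 rat 5 for 1. Vehicle rat 3 was the lowest for 6 genes and vehicle rat 5 for the other 2, Stab1 and Stab2. Hence the highest rat was a CVX-060 rat and the lowest a vehicle rat for each of the 8 genes. The lowest was always vehicle rat 3 or 5, and the share of all genes with such an order was not computed. CVX-060 rat 4 was above the gene's mean for only 1 gene, Gata4, whereas vehicle rat 2 was above it for all 8. These ranks are a description, since the genes are not independent of each other.

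**Figure D3:**
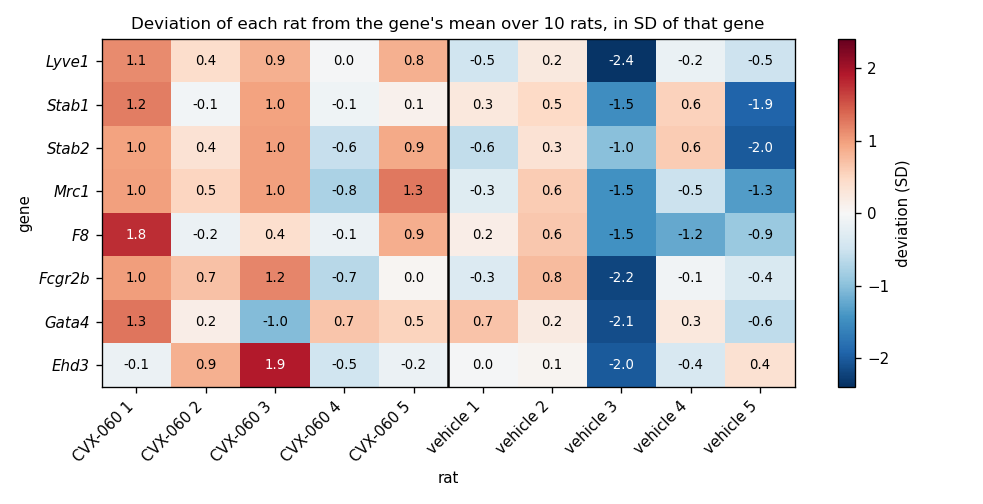
Deviation of each rat (x axis, CVX-060 rats left and vehicle rats right of the line) from the mean of each gene (y axis), in SD of that gene over the 10 rats (colour and number). Vehicle rat 3 was low for all 8 genes and vehicle rat 5 for 7 of them, while CVX-060 rats 1, 3 and 5 were high for 7 each. Unlike the rest of their groups, vehicle rat 2 was high for all 8 genes and CVX-060 rat 4 for only 1.

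The SD over the 10 rats was 0.34 for Lyve1, 0.26 for Stab1, 0.33 for Stab2, 0.34 for Mrc1 and 0.36 for Fcgr2b, against a median of 0.18 over all genes. For these 5 receptors, 72.3% to 86% of all genes had a smaller SD. Gata4 had an SD of 0.30, F8 of 0.20 and Ehd3 of 0.15, the last below the median of all genes. Since the probe set was picked for its variance, these are descriptions, and genes with several probe sets had more to pick from. The SD was larger among the vehicle rats than among the CVX-060 rats for 7 of the 8 genes. The vehicle group holds rats 3 and 5, the lowest by the standardised mean (-1.76 and -0.91). The same share over all genes was not computed, and no test of this was made.

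The receptors varied together from rat to rat. Of the 28 pairs of genes, all had a positive Pearson r over the 10 rats, from 0.17 to 0.91 with a median of 0.70, while the median r of the 8 genes with the 14209 other genes was 0.02. In 14 pairs the adjusted permutation p of r was under 0.05, and in 10 that of Spearman's rho, each from 100000 resamples and adjusted over the 28 pairs. These p-values concern genes put on the list with results of these data known and are not independent support of the list. Without the 2 rats farthest from the median of the first gene of a pair, the median r was 0.45 and 23 pairs stayed positive. On residuals from the group means, which leave out the difference between CVX-060 and vehicle, the median r was 0.60 and all 28 were positive, but 0 pairs passed by r and 6 by rho. Without vehicle rat 3 only 4 pairs passed and the median r was 0.58, so that much of the count rested on that rat. The count was 9 without CVX-060 rat 1, CVX-060 rat 4 or vehicle rat 2, and 8 without both rats that stood apart on the first component, where the median r was 0.71.

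The tightest pairs joined hyaluronan, mannose and Fc receptors. Lyve1 and Fcgr2b had r = 0.91 (permutation p = 0.00123, adjusted p = 0.00861) and rho = 0.87, and r was 0.70 without the 2 farthest rats and 0.92 on residuals. Lyve1 and Mrc1 had r = 0.86 (permutation p = 8e-05, adjusted p = 0.00224) and rho = 0.90, with r = 0.90 without the 2 farthest rats. This pair did not rest on vehicle rat 3, since r without that rat was 0.89. The stabilins, Stab1 and Stab2, had r = 0.88 (permutation p = 0.00041, adjusted p = 0.00574) and rho = 0.82, with r = 0.62 without vehicle rats 3 and 5. Stab2 and Mrc1 also had r = 0.88 (permutation p = 0.00082, adjusted p = 0.00765) and rho = 0.83, with r = 0.79 without the same rats. Mrc1 and F8 had r = 0.84 (permutation p = 0.00222, adjusted p = 0.0104) and rho = 0.89, read from the F8 probe set near background.

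Gata4 and Ehd3 followed the receptors less closely in these values, and that difference was not tested. Gata4 was in none of the 14 pairs past the threshold, and without the 2 farthest rats its r with Lyve1, Stab1, Stab2, Mrc1 and Ehd3 was below 0. Gata4 and Ehd3 had r = 0.17 (permutation p = 0.62, adjusted p = 0.62) and rho = -0.25, and r was -0.50 without CVX-060 rat 3 and vehicle rat 3. Without vehicle rat 3 alone their r was -0.77. On those rats r with the other genes ran from -0.17 (Fcgr2b) to 0.46 (F8) for Gata4. For Ehd3 it ran from 0.04 (F8) to 0.62 (Fcgr2b). Ehd3 entered 1 of the 14 pairs, with Fcgr2b (r = 0.82, permutation p = 0.00507, adjusted p = 0.0158, rho = 0.65), where r was 0.39 without the 2 farthest rats. Against the mean of the other 7 genes, r was 0.94 for Lyve1, 0.90 for Mrc1, 0.90 for Fcgr2b, 0.83 for Stab1, 0.80 for F8 and 0.77 for Stab2. It was 0.57 for Gata4 (rho 0.24) and 0.56 for Ehd3 (rho 0.35).

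**Figure D4:**
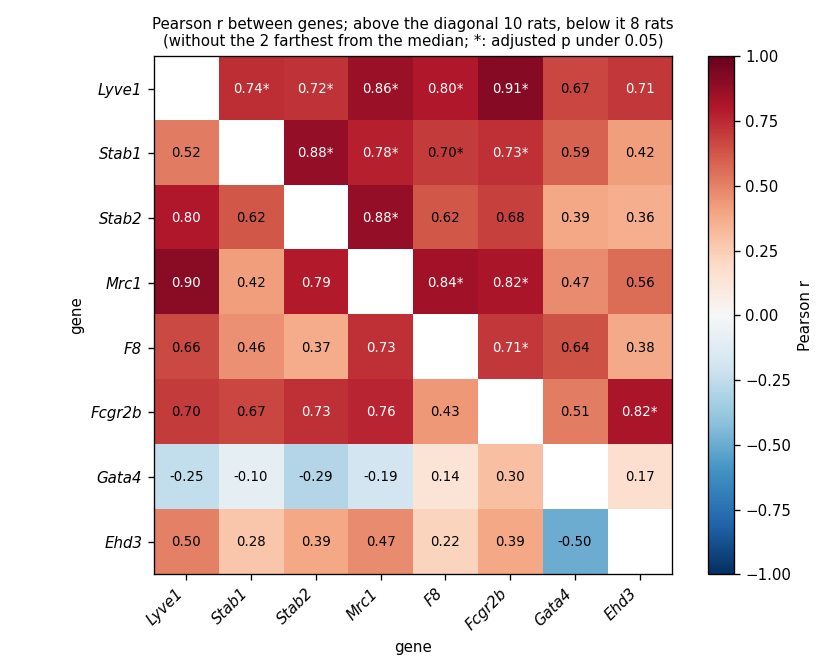
Pearson r (colour and number) between the 8 genes (both axes), over 10 rats above the diagonal and without the 2 rats farthest from the median of the gene first in the list below it; an asterisk marks an adjusted permutation p under 0.05. All 28 values above the diagonal are positive, and below it 5 values are negative, all with Gata4.

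The genes whose signal was most like that of the 8 were ranked by r with their standardised mean over the 10 rats, among 8442 other genes whose mean signal was over background. The first was Pde2a, a cyclic nucleotide phosphodiesterase, with r = 0.95 (rho 0.94), followed by Atp10d with 0.92, and by Npr1, a natriuretic peptide receptor, and Klhl13 with 0.91 each. Gatm, an enzyme of creatine synthesis, Tnfsf10, the death ligand TRAIL, Exoc3l2, Tek, which encodes Tie2, and the myosin gene Myo7a each had 0.89, and Strada had 0.88. Tek averaged 8.0 with CVX-060 and 7.71 with vehicle, a difference of 0.29 (exact permutation p = 0.111, n = 5 each). On residuals from the group means these 10 genes still had r of 0.81 to 0.94. For single genes, the most alike were Tek for Fcgr2b (r = 0.97), Gatm for Mrc1 (0.96), Nbea for Stab2 (0.94), Strada for F8 (0.93) and Tspan7 for Stab1 (0.92). Tmco6 was the most alike for Gata4 (0.92), Tstd3 for Ehd3 (0.91) and Npr1 for Lyve1 (0.90). Second in order were Cyyr1 for Mrc1 and Sh3tc1 for Fcgr2b (0.95 each), Tspan7 for Stab2 (0.94), Hip1 for F8 (0.92), Hspb1 for Stab1 (0.91), Mrpl52 for Gata4 (0.90), Tek for Lyve1 (0.89) and Arhgap23 for Ehd3 (0.88). These values are the highest of many and carry no test.

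Most other genes of sinusoidal endothelium also had a higher mean with CVX-060, and no test compared them with the 8 genes. Of 34 measured, 22 were above background in all rats, and 18 of these 22 were higher with CVX-060. Over all 34, 28 were higher, the median difference was 0.16, and 0 passed limma's adjusted threshold. At an unadjusted limma p under 0.05, 1 was higher, Ptgs1, a cyclooxygenase (0.31, exact permutation p = 0.0635), and 1 was lower, Plpp3, a lipid phosphatase (-0.54, exact permutation p = 0.0159). Adam23 differed by 0.31 (exact permutation p = 0.0952). Bmp2 (0.44) and Kdr (0.41) had the highest differences on this list, as large as those of Lyve1 and Mrc1, and Plpp3 had the largest of either sign. Bmp2 was above background in only 7 rats. Dnase1l3, a DNase of these cells, averaged 10.09 with CVX-060 and 9.74 with vehicle. Gpr182, a chemokine scavenging receptor, averaged 8.22 with CVX-060 and 7.93 with vehicle, and Maf, a transcription factor of these cells, 9.23 with CVX-060 and 8.96 with vehicle. Bmp2, Dnase1l3, Gpr182 and Maf were picked for naming after their values were seen. The mean of the list correlated with the mean of the 8 standardised genes at r = 0.93 over the 10 rats, and ranged over 7.44 to 7.82 in CVX-060 rats and 7.40 to 7.66 in vehicle rats.

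Partners of the receptors in uptake and breakdown had a median difference close to 0. Of 21 measured genes of clathrin coats, endosomes, lysosomes and further scavenger receptors, 15 were higher with CVX-060, with a median difference of 0.07 and 0 under an unadjusted p of 0.05. The lowest p values were those of Ap2b1, a subunit of the clathrin adaptor (0.22), Scarf1, a scavenger receptor of endothelium that was above background in 1 rat (0.13), and Ctsl, cathepsin L (0.31). All 7 other hyaluronan genes measured were higher by 0.03 to 0.24, with a median of 0.17, though only 2 of the 7 were above background in all rats. Lowest in p were the hyaluronidase Hyal2 (0.21), Hmmr (0.24) and Cemip (0.17), of which Hmmr and Cemip were above background in 0 rats. The other Ehd genes differed by 0.36 (Ehd4), 0.13 (Ehd1) and 0.10 (Ehd2), the last above background in 0 rats. Of the other Gata genes, Gata6 differed by -0.22, Gata1 by 0.10 and Gata2 by -0.10, and none was above background in all rats. Partners of factor VIII had a median difference of 0.01 over 7 genes, among them the liver lectin Asgr1 (-0.13), F9 (-0.06), Lrp1 (0.06) and its plasma carrier Vwf (0.03), the last named after its value was seen. Of 4 other Fc receptor genes, Fcgr3a differed by 0.27, Fcgr1a by 0.15, Fcer1g by 0.15 and Fcgrt by -0.04. In each of these lists 0 genes passed limma's adjusted threshold.

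General endothelial genes were also higher on average with CVX-060. Of 20 measured, 17 were higher, the median difference was 0.19, and 11 were above background in all 10 rats. Eng, a TGF-beta coreceptor, averaged 8.90 with CVX-060 and 8.66 with vehicle (exact permutation p = 0.135). Kdr, the main VEGF receptor, averaged 9.70 with CVX-060 and 9.29 with vehicle (exact permutation p = 0.143), and Tek is given above. Pecam1, an adhesion protein of all endothelium, averaged 6.76 with CVX-060 and 6.56 with vehicle (exact permutation p = 0.127). Kdr, Eng, Sox18, Nos3 and Mmrn2 stand on both endothelial lists. The mean of the list was 6.90, 6.94, 6.84, 6.63 and 7.0 in CVX-060 rats 1 to 5, against 6.80, 6.97, 6.38, 6.80 and 6.57 in vehicle rats 1 to 5. It was thus lowest in vehicle rats 3 and 5 and in CVX-060 rat 4, as was the standardised mean of the 8 genes. The r between the list mean and that standardised mean was 0.91.

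To set the 8 genes against endothelium in general, the mean of the 20 general endothelial genes was subtracted from each gene within each rat. Only 11 of these 20 were above background in all 10 rats, and the mean of those alone was not used. Lyve1 then averaged 3.71 ± 0.11 with CVX-060 and 3.43 ± 0.16 with vehicle, a difference of 0.28 (exact permutation p = 0.0159, n = 5 each). Mrc1 averaged 2.66 ± 0.16 with CVX-060 and 2.42 ± 0.10 with vehicle, a difference of 0.24 (exact permutation p = 0.0397, n = 5 each). For both, the permutation p adjusted over all genes was 0.765. Lyve1 and Mrc1 were the only 2 genes of all 14217 (0.0141%) that were higher in this way at an exact permutation p under 0.05. On this scale 10.6% of genes were higher at all, because the mean of the list was itself 0.16 higher with CVX-060. The subtraction also adds the spread of the list between rats to genes that do not follow it. The mean of the 8 genes followed it at r = 0.91, so the count does not set Lyve1 and Mrc1 apart from other genes. Stab2 differed by 0.20 (exact permutation p = 0.167), Fcgr2b by 0.17 (0.254), Stab1 by 0.07, F8 by 0.07, Gata4 by 0.03 and Ehd3 by -0.03. Single rats moved the smaller of these values, since Stab2 differed by 0.11 and Stab1 by 0.00 without vehicle rat 5, Fcgr2b by 0.09 without vehicle rat 3 and by 0.10 without CVX-060 rat 3, and F8 by 0.01 without vehicle rat 4. Over the 10 omissions the difference was 0.11 to 0.27 for Stab2, 0.09 to 0.24 for Fcgr2b, 0.00 to 0.12 for Stab1 and 0.01 to 0.12 for F8. Leaving out 1 rat at a time kept the exact permutation p of Lyve1 between 0.0159 and 0.0317, and gave 0.0238 to 0.0794 for Mrc1. Without CVX-060 rat 5 and vehicle rat 2, the differences were 0.31 for Lyve1 and 0.26 for Mrc1, each with an exact permutation p of 0.0571.

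Macrophage genes had higher means with CVX-060 in most cases too. Mrc1 and Fcgr2b are made by Kupffer cells as well, and of 16 Kupffer cell and macrophage genes measured, 13 were higher with CVX-060, by a median over the list of 0.23, with 0 past limma's adjusted threshold. C1qc, a complement subunit made by macrophages, had a limma p under 0.05 before adjustment, with a difference of 0.32 (exact permutation p = 0.0635), followed by the haemoglobin scavenger receptor Cd163 with 0.31 and C1qa with 0.27. The rat Kupffer cell lectin Clec4f, named after its values were seen, averaged 10.97 with CVX-060 and 10.74 with vehicle. The mean of the list was 9.0, 9.16, 9.0, 8.80 and 9.41 in CVX-060 rats, against 8.89, 8.98, 8.94, 8.79 and 8.87 in vehicle rats. Vehicle rat 3 was not low on this list, and its r with the standardised mean of the 8 genes was 0.49, against 0.91 for the general endothelial list. With the macrophage list subtracted within each rat in place of the endothelial one, a choice made after seeing the data, Lyve1 differed by 0.26 (exact permutation p = 0.183) and Mrc1 by 0.22 (0.159), where 8.07% of all genes were higher. On that scale too, 2 genes of all 14217 (0.0141%) were higher at an exact permutation p under 0.05, but these were Arrdc4 and Hpgds and none of the 8 genes. With the macrophage list subtracted, Stab2 differed by 0.17, Fcgr2b by 0.14, F8 by 0.05, Stab1 by 0.04, Gata4 by 0.01 and Ehd3 by -0.06. The part of Kupffer cells in the signals of Mrc1, Fcgr2b or any other of the 8 genes was not tested.

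Lyve1 and Stab1 are also found in lymphatic endothelium. Of 8 lymphatic genes measured, 2 were higher with CVX-060, against 52.6% of all genes, and 2 were above background in all rats. The median difference was -0.07, beside a median absolute difference of 0.07 over all genes. Prox1, the gene of the defining transcription factor of lymphatic endothelium, which hepatocytes also use, was above background in 0 rats. Its mean was 4.44 with CVX-060 and 4.51 with vehicle. The mean of the list ranged over 5.50 to 5.91 in CVX-060 rats and 5.45 to 6.24 in vehicle rats, and its r with the 8 genes was 0.18. The 3 of lowest p were the VEGF-C receptor Flt4 (-0.09), Sema3d (0.05) and Prox1 (-0.08). The part of lymphatic endothelium in the signals of Lyve1 and Stab1 was not tested.

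Genes of capillarized and large vessel endothelium had a median difference of 0.06, with 11 of 13 higher with CVX-060. Only 6 of the 13 were above background in all rats, and 5 of these were higher. Plvap, the diaphragm protein of fenestrated vessels, differed by 0.20 (exact permutation p = 0.222), and the basement membrane genes Nid1 by 0.28 and Col4a1 by 0.30 (0.262 each). Hepatocyte genes had a median difference of -0.01 over 14 genes, and their list mean spanned 12.74 to 12.82 in CVX-060 rats and 12.70 to 12.88 in vehicle rats. Stellate cell and myofibroblast genes had a median of 0.10 over 17 genes, with the matrix proteoglycans Lum at -1.01 (exact permutation p = 0.103) and Dcn at -0.50 (0.143) against the list, and Acta2, smooth muscle actin, at 0.14, and Lum was above background in 3 rats. Cholangiocyte genes had a median of -0.00 over 8 genes, 3 of them above background in all rats, where Muc1 differed by -0.28, Cftr by -0.14 and Krt19 by 0.30. The median was 0.05 over 12 T and NK cell genes, led by Il2rb (0.19, exact permutation p = 0.0397), Prf1 (0.32) and Nkg7 (0.20). Of these 12 genes 1 was above background in all rats, while Il2rb and Nkg7 were above it in 1 rat each and Prf1 in 3. Over 5 B cell genes, 2 of them above background in all rats, the median was 0.05, where Jchain differed by 0.32, Cd74 by 0.41 and Ms4a1 by -0.07. In each of these lists 0 genes passed limma's adjusted threshold, and the part of any of these cells in the difference of the 8 genes was not tested.

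**Figure D5:**
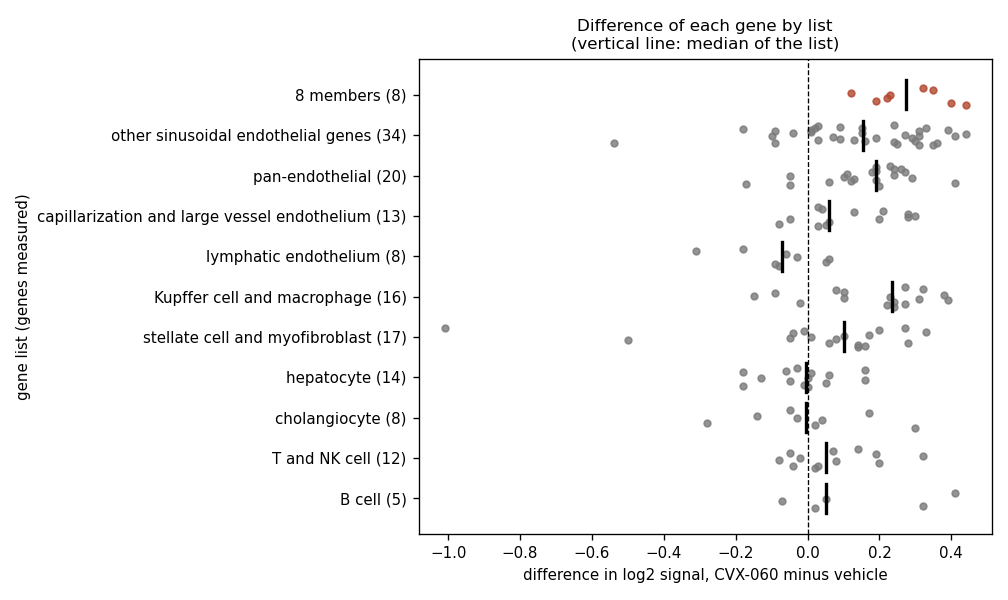
Difference in log2 signal, CVX-060 minus vehicle (x axis), of each measured gene (point) by gene list (y axis, with the number of genes), with the median of the list as a vertical line; points are spread up and down within a row only for legibility. The median was 0.28 for the 8 genes (red), 0.16 for other sinusoidal genes, 0.19 for general endothelial genes, 0.23 for macrophage genes and -0.01 for hepatocyte genes.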

How the data were processed

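Values for 5 CVX-060 and 5 vehicle rats were deposited by the authors as log2 signals that had been normalized between arrays. R 3.4.0 with limma 3.38.2 and affy 1.56.0 is listed in the submitters' processing notes, and the background correction and summary method are not given in the sources used here. Scanner files were not used here, and the values were not normalized again. Groups were taken from the sample labels, which call the rats biological replicates.

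The platform annotation gave 1 symbol to 20826 of 31099 probe sets, which cover 14217 genes, 4525 of them more than once. Left out were 57 control probe sets, 436 with several symbols and 9780 with none. Each gene was read from its most variable probe set. Groups were compared in limma 3.58.1 (R 4.3.3, lmFit and eBayes), p-values were adjusted by Benjamini-Hochberg over every gene, and a further count asked for over 1.5-fold (0 genes). SE, 95% intervals and unadjusted p are those of limma, and each difference also had an exact two-sided permutation test. Correlations between rats were tested by 100000 permutations. Further tools were Python 3.11.15, numpy 2.4.6, pandas 2.3.3, matplotlib 3.10.9 and scipy 1.17.1. The limma, permutation and correlation steps were tested on simulated data.

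The genes and lists were chosen with earlier results of these data known. Named genes are each gene of the list, the 3 of lowest limma p from each other list, the 10 genes most like the mean of the 8 and the 2 most like each, and Bmal1. Cyp2c12, Uty, Bmp2, Dnase1l3, Gpr182, Maf, Vwf, Fcgrt, Clec4f, Arrdc4 and Hpgds were named after their values were seen. As alternatives, genes were read from the brightest probe set or from every probe set, genes below the 40th percentile of mean signal were dropped, arrays were quantile normalized again or centred on their medians, and arrays were weighted. A trended robust variance prior, the replicate number as a block, Bmal1 as a covariate, omission of each rat or of both rats that stood apart, and other background percentiles were also tried. Promoter sequences are from RefSeq (GRCr8). The number of arrays limits the precision.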

Additional observations from a re-analysis of the deposited data

Results flagged for a closer look

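Lyve1 in vehicle rat 3 lay apart from the other vehicle rats, at 9.56 where the other 4 had 10.19 to 10.43. Its gap to the nearest was 0.721 of the range of the group, above Dixon's critical value of 0.71 for 5 values. This was 1 of 16 groups of 5 rats examined, and chance alone sets apart about 1 in 20 groups. The same rat was the lowest for 6 of the 8 genes.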

How the results depend on the processing

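All 8 genes had a higher mean with CVX-060 under each alternative, except that the filter at the 40th percentile left 7, without F8, and that with every probe set 11 of 14 were higher. The median difference was 0.28, and 0.17 to 0.36 when 1 rat was left out, lowest without vehicle rat 3. It was 0.35 with array weights, 0.35 without both rats that stood apart and 0.17 with Bmal1 as a covariate. F8 differed by 0.06 in its brightest probe set. Limma called 0 genes at an adjusted p under 0.05 in every alternative, and the lowest adjusted p was 0.59173, with Bmal1 as a covariate. The replicate block, balanced here, and the trended robust variance prior cannot change a difference, so the median of 0.28 was fixed for both. With each of them 0 genes passed. Whether same-numbered rats were paired is not given in the labels. The correlation of the deviations of same-numbered rats was 0.10, -0.10, 0.15, 0.05 and -0.17, which cannot show that they were unpaired. Bmal1 was high in rats 1 and 2 and low in rats 4 and 5 of both groups.

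Of the 28 pairs of genes, 14 passed by r. On residuals from the group means 0 did, without both rats that stood apart 8, and with the probe sets of highest mean 7. Leaving out 1 rat, a choice made after seeing the data, gave 4 to 16 pairs, lowest without vehicle rat 3. Relative to the endothelial list, leaving out 1 rat, likewise added later, moved the difference of Gata4 over -0.05 to 0.13 and that of Ehd3 over -0.10 to 0.03, and so turned their signs. Gata4 was at -0.05 without CVX-060 rat 4, -0.03 without CVX-060 rat 1 and -0.03 without vehicle rat 3, and Ehd3 at 0.02 without CVX-060 rat 5 and 0.03 without vehicle rat 5. Signals near background limit what F8, Gata4 and Ehd3 can show.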
